A study of Mus musculus with 50 samples.

Results

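The genes described here are 9 mouse genes that break down heme or take up, store and export iron: Hmox1, Hmox2, Blvra, Blvrb, Fth1, Ftl1, Tfrc, Slc40a1 and Trf. They were chosen by symbol, with earlier results of these data known. All 9 were found among the 39056 genes of the count table and among the 16460 genes that passed the filter on low counts. They were followed in 50 bulk RNA-seq libraries of developing oligodendrocytes, the cells that become the myelinating cells of the brain. Precursors had been immunopanned from the cortex of 6-day-old C57BL/6 pups, passaged and left to differentiate for some hours, after which plates were assigned to treatments at random. A tissue tag names whole brain instead. Cells came from Nrf2 -/- mice, whose gene for the transcription factor NRF2 (Nfe2l2) is disrupted, or from wild-type mice. Thapsigargin, labelled as 200 µM, was given for 1 or 8 h, interferon-γ (IFN-γ, 200 U/ml) for 1, 8, 24 or 48 h, and untreated cells were taken at 1, 8, 24 and 48 h. Each of these 10 conditions has 3 Nrf2 -/- and 2 wild-type libraries, which makes 20 groups. More mutant replicates are mentioned in the design than the 3 analysed here.

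Heme released from worn proteins is opened by heme oxygenase, which gives carbon monoxide, ferrous iron and biliverdin, and biliverdin reductase then turns biliverdin into bilirubin. The iron that is set free is stored in ferritin, a shell of heavy and light chains, or leaves the cell through ferroportin, while new iron arrives bound to transferrin through the transferrin receptor. Oligodendrocytes are the brain cells richest in iron and ferritin, and they are also a main source of transferrin messenger RNA in the adult brain. Hmox1 and both ferritin genes are textbook targets of NRF2. Thapsigargin blocks the pump that fills the endoplasmic reticulum with calcium, which brings on protein-folding stress, and IFN-γ is the cytokine that T cells release in inflamed tissue.

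Several of these messenger RNAs carry iron-responsive elements, short hairpins that the iron regulatory proteins bind when iron is scarce. Binding in the 5′ untranslated region (UTR) holds back translation, and binding in the 3′ UTR protects the message from decay. The elements are shown because they divide the set by its kind of control, and because RNA-seq sees message levels only, not translation. The pattern searched was a C, a run of 5 bases, the loop CAGTGN and 5 bases that pair with that run, with G and U pairs allowed, on the transcript's own strand. It was found in the 5′ UTR of Fth1, Ftl1 and Slc40a1 and at 4 places in the 3′ UTR of Tfrc, but in the 5′ UTR of only 0.150% of 20597 coding genes and the 3′ UTR of 0.614% of 20995. The 30 bases around the elements of 3 genes are given from 5′ to 3′ as DNA, with the loop in capitals (GRCm38, GENCODE M21 transcripts).
Fth1 5′ UTR, chr19:9982732-9982761, plus strand: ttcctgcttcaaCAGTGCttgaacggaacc
Ftl1 5′ UTR, chr7:45459778-45459807, minus strand: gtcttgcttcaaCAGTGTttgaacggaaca
Tfrc 3′ UTR, chr16:32631219-32631248, plus strand: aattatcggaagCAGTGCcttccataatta
Tfrc 3′ UTR, chr16:32631598-32631627, plus strand: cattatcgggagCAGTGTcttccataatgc
Tfrc 3′ UTR, chr16:32631663-32631692, plus strand: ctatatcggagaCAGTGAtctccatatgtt
Tfrc 3′ UTR, chr16:32631710-32631739, plus strand: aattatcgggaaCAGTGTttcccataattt
The ferritin elements share most of their letters around the loop. A match is a description of the letters and was not tested for binding.

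Libraries held 32.3 M to 54.7 M counted reads, with a median of 36.05 M. Nfe2l2 stood at 0.0973 to 0.859 CPM (counts-per-million reads, scaled by library size with the TMM method) in 29 of the 30 Nrf2 -/- libraries and at 5.12 to 70.4 CPM in the 20 wild-type libraries. The library labelled Nrf2 -/- untreated 8 h replicate 3 had 7.62 CPM, which is within the wild-type range, and values without it are given below for the 8 h comparisons with untreated cells and the time steps that use it. In 3 libraries, replicate 2 of the Nrf2 -/- groups at 8 h, another label field names the other genotype, and the title was followed. Xist, a transcript of female cells, was at 364 to 887 CPM in 20 Nrf2 -/- libraries, at 3.13 to 9.87 CPM in the other 10 and at 0.119 to 11.8 CPM in wild type, so sex is not balanced between the genotypes. The summed level of 15 mature oligodendrocyte markers was 2724 to 43960 CPM over the libraries, with Mbp counted in each, though Aspa, another gene of that list, had 0 counts in 23 libraries and at most 14 in the others, while the defining microglial genes Aif1, C1qa, C1qb, C1qc and Tyrobp and the endothelial gene Cldn5 had 0 counts in all 50 libraries. In bulk RNA, fewer cells of a type and less RNA per cell cannot be told apart.

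Set against each other per transcript length, the ferritin light chain was by far the most abundant of these messages. In the 20 untreated libraries the median level was 1506 TPM (transcripts-per-million, from the kallisto table) for Ftl1, 245 TPM for Trf, 234 TPM for Fth1 and 129 TPM for Tfrc. The heme-breakdown genes were lower, with medians of 67.1 TPM for Hmox2, 40.6 TPM for Blvra, 11.7 TPM for Hmox1 and 2.80 TPM for Blvrb, and the iron exporter Slc40a1 was close to absent at 0.330 TPM. Per kilobase of exon from the gene counts, Ftl1 again led with a median of 486 RPKM, followed by Tfrc with 49.5 and Fth1 with 31.8, and Trf had only 8.25.

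After 8 h of thapsigargin the heme-breakdown genes split. Hmox1, the inducible heme oxygenase, and Blvrb, a flavin reductase that also acts on biliverdin, rose in every library, while Hmox2, the constitutive heme oxygenase, and Blvra, the main biliverdin reductase of adult tissue, fell in every library. Of the 9 genes, 8 passed the test (adjusted p below 0.05, edgeR, over all tested genes), 2 higher and 6 lower. Of all tested genes 67.1% passed, so the number itself is near the background, and what follows are the sizes and directions.

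Hmox1 (ENSMUSG00000005413.8, chr8:75093621-75100589, plus strand) stood at 68.4, 75.8 and 79.5 CPM in Nrf2 -/- and 74.7 and 57.7 CPM in wild-type libraries after 8 h of thapsigargin, against 7.45, 8.87 and 8.64 CPM in Nrf2 -/- and 8.26 and 7.60 CPM in wild-type untreated libraries. Every treated library lay far above every untreated one, in both genotypes. The difference was 8.64-fold (log2 3.11 ± 0.11 SE, n = 5 against 5, adjusted p = 2.63e-26). At 1 h the difference did not pass, with a log2 fold of −0.04 (95% interval −0.26 to 0.17, adjusted p = 0.832).

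Blvrb (ENSMUSG00000040466.16, chr7:27447978-27466144, plus strand) is scarce, and at 8 h had 6.17, 6.34 and 5.02 CPM in Nrf2 -/- and 6.49 and 6.79 CPM in wild-type thapsigargin libraries, against 1.89, 1.83 and 1.08 CPM in Nrf2 -/- and 1.501 and 1.89 CPM in wild-type untreated libraries. The groups were well apart, and the log2 fold was 1.92 ± 0.14 (adjusted p = 3.89e-15). Hmox2 (ENSMUSG00000004070.15, chr16:4726361-4766742, plus strand) had 24.7, 25.8 and 25.6 CPM in Nrf2 -/- and 27.9 and 23.01 CPM in wild-type libraries with thapsigargin, against 47.7, 45.6 and 40.8 CPM in Nrf2 -/- and 49.7 and 50.1 CPM in wild-type untreated libraries. No treated library reached the lowest untreated one, and the log2 fold was −0.89 ± 0.06 (adjusted p = 1.33e-15). Blvra (ENSMUSG00000001999.15, chr2:127070665-127097084, plus strand) also fell, to 13.05, 15.8 and 13.3 CPM in Nrf2 -/- and 13.7 and 13.6 CPM in wild-type libraries, against 28.97, 25.5 and 23.7 CPM in Nrf2 -/- and 28.4 and 29.3 CPM in wild-type untreated libraries (log2 fold −0.98 ± 0.07, adjusted p = 2.10e-16). Hmox2 overlaps a gene on the opposite strand, and the strand setting of the counting is not given in the sources used here.

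The genes of iron uptake and storage fell or did not pass at 8 h of thapsigargin. Tfrc, the transferrin receptor, the ferritin heavy chain Fth1, the exporter Slc40a1 and the carrier protein Trf fell, and the ferritin light chain Ftl1 did not pass the test. Tfrc (ENSMUSG00000022797.15, chr16:32608920-32632794, plus strand) had 135, 150 and 153 CPM in Nrf2 -/- and 143 and 146 CPM in wild-type thapsigargin libraries, against 374, 346 and 333 CPM in Nrf2 -/- and 382 and 383 CPM in wild-type untreated libraries. Its log2 fold was −1.34 ± 0.06 (adjusted p = 2.37e-22), and the treated libraries were the lowest of all 50. The 3′ UTR of Tfrc holds the 4 matches shown above, and their part in this difference was not tested.

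Fth1 (ENSMUSG00000024661.6, chr19:9980598-9985098, plus strand) stood at 64.7, 59.5 and 60.9 CPM in Nrf2 -/- and 75.0 and 64.8 CPM in wild-type thapsigargin libraries, against 109, 80.2 and 82.4 CPM in Nrf2 -/- and 114 and 102 CPM in wild-type untreated libraries. The treated libraries were below all untreated ones, by a log2 fold of −0.59 ± 0.10 (adjusted p = 1.25e-06). Ftl1 (ENSMUSG00000050708.16, chr7:45457944-45459884, minus strand), in contrast, had 589, 636 and 564 CPM in Nrf2 -/- and 658 and 541 CPM in wild-type thapsigargin libraries, against 619, 596 and 561 CPM in Nrf2 -/- and 626 and 631 CPM in wild-type untreated libraries. These groups overlapped, and the log2 fold was −0.03 (95% interval −0.14 to 0.08, adjusted p = 0.656). Whether the responses of the 2 ferritin chains differ from each other was not tested. Ftl1 shares 85.4% of its 31-base words with 30 other annotated genes, and those held 0.151% as many kallisto estimated counts as Ftl1 itself. That share depends on how kallisto divides shared reads, and the CPM values come from the gene counts. The kallisto estimates of Ftl1 were 1.145 to 1.18 times its gene counts, and the part of shared sequence in that gap was not tested.

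Trf (ENSMUSG00000032554.15, chr9:103204001-103230444, minus strand) had 6.14, 5.33 and 6.04 CPM in Nrf2 -/- and 8.39 and 6.47 CPM in wild-type thapsigargin libraries, against 13.6, 11.2 and 13.9 CPM in Nrf2 -/- and 13.7 and 11.1 CPM in wild-type untreated libraries (log2 fold −0.94 ± 0.15, adjusted p = 1.08e-06). Slc40a1 (ENSMUSG00000025993.10, chr1:45908068-45926523, minus strand), which encodes the iron exporter ferroportin, was at the edge of detection, with 3 counts in the 5 thapsigargin libraries together against 31 in the 5 untreated libraries. The ratio, scaled to library size, was 0.110 (95% interval 0.0214 to 0.351, counting error only), and edgeR's adjusted p was 0.000614. By the kallisto table the log2 fold of Slc40a1 was −0.98 (adjusted p = 0.0348), so the size of that drop depends on the counter.

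Without the library at odds with its genotype label, Nrf2 -/- untreated 8 h replicate 3, the same 8 genes passed at 8 h of thapsigargin. The log2 folds were then 3.13 for Hmox1, 1.81 for Blvrb, −0.92 for Hmox2 and −1.02 for Blvra. For the iron genes they were −1.35 for Tfrc, −0.62 for Fth1, −0.92 for Trf and, as fitted on few counts, −2.93 for Slc40a1, and Ftl1 again did not pass (−0.05, adjusted p = 0.466).

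At 1 h of thapsigargin 3 of the 9 genes passed, all lower, and 20.4% of all tested genes did. Tfrc had 224, 228 and 230 CPM in Nrf2 -/- and 179 and 203 CPM in wild-type thapsigargin libraries, against 268, 263 and 271 CPM in Nrf2 -/- and 248 and 230 CPM in wild-type untreated libraries. Only the highest thapsigargin library touched the lowest untreated one, and the log2 fold was −0.28 ± 0.06 (adjusted p = 0.000396). Ftl1 was lower by a log2 fold of −0.23 ± 0.05 (adjusted p = 0.00148), with 454 to 523 CPM in thapsigargin and 538 to 622 CPM in untreated libraries. Hmox2 was lower by −0.18 ± 0.06 (adjusted p = 0.0377). That last call was lost, at log2 folds of −0.17 to −0.19 and adjusted p of 0.0698 to 0.120, when any single library of wild-type thapsigargin 1 h replicates 1 and 2, Nrf2 -/- thapsigargin 1 h replicates 1 and 3, wild-type untreated 1 h replicates 1 and 2 and Nrf2 -/- untreated 1 h replicate 1 was left out.

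The treatment also moved the cell-type lists. At 8 h the summed mature oligodendrocyte markers were 2724 to 3513 CPM with thapsigargin and 8445 to 10450 CPM untreated, 12 of the 15 genes being lower and 0 higher by edgeR. The 9 astrocyte markers summed to 165 to 189 CPM with thapsigargin and 511 to 588 CPM untreated, and the 12 cell-division genes to 285 to 397 CPM against 1013 to 1306 CPM. The part of these shifts in the values of the iron genes was not tested.

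**Figure D1:**
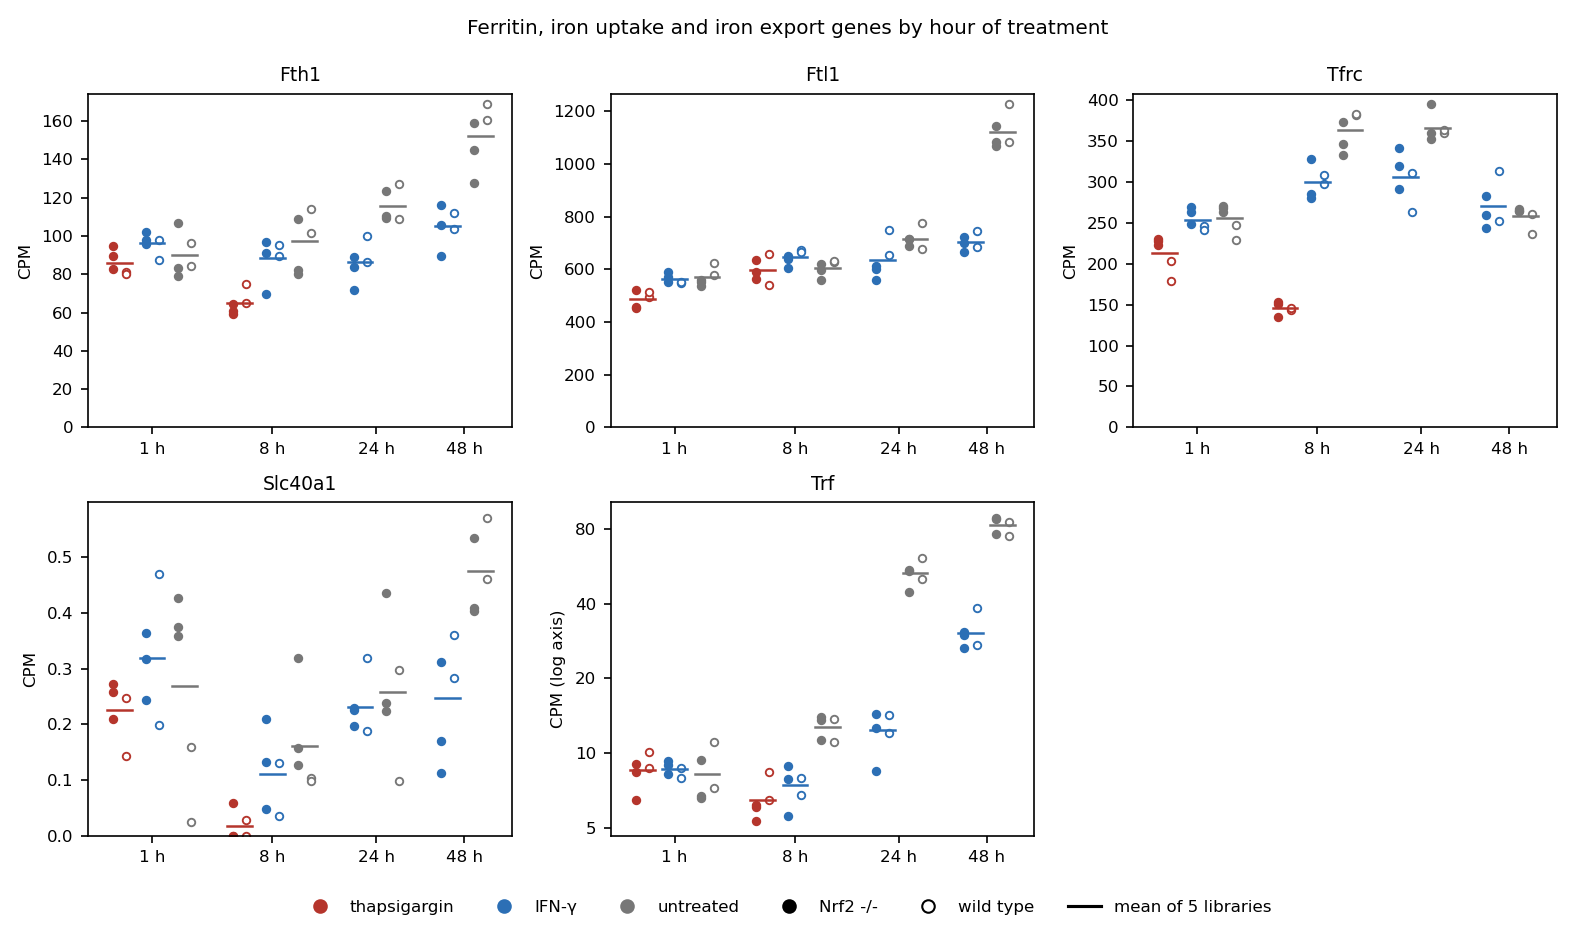
Levels of Fth1, Ftl1, Tfrc, Slc40a1 and Trf in CPM (y axis, logarithmic for Trf) against hour (x axis) in each library, drawn as in the plot of heme-breakdown genes. At 48 h Trf is at 26.4 to 38.3 CPM under IFN-γ and at 74.9 to 88.9 CPM in untreated cells, and Tfrc is lowest after 8 h of thapsigargin, at 135 to 153 CPM.

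Under IFN-γ none of these genes passed the test at 1 h, and most did at 24 and 48 h. Against untreated cells of the same hour, Trf was lower at 8, 24 and 48 h and both ferritin genes at 24 and 48 h. Blvrb was higher at 8, 24 and 48 h. At 1 h 0 of 9 passed by edgeR, 0 had an unadjusted p under 0.05 and DESeq2 called 0, against 3.64% of all tested genes called by edgeR. At 8 h 5 passed (2 higher, 3 lower), at 24 h 8 (3 higher, 5 lower) and at 48 h 7 (2 higher, 5 lower). Those counts stand beside backgrounds of 39.8%, 55.9% and 55.8% of all tested genes. Without the library at odds with its label the same 5 genes passed at 8 h, with log2 folds of 0.44 for Hmox1, 0.38 for Blvrb, −0.22 for Hmox2, −0.31 for Tfrc and −0.75 for Trf.

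Hmox1 was higher with IFN-γ than in untreated cells at 8 and 24 h. Its mean with IFN-γ was 10.27, 10.98 and 10.92 CPM at 1, 8 and 24 h, and changes between those hours were not tested. Its untreated mean was 9.452, 8.162 and 6.966 CPM at the same hours. At 8 h it had 11.01, 11.1 and 11.6 CPM in Nrf2 -/- and 11.2 and 9.88 CPM in wild-type IFN-γ libraries, against 7.45, 8.87 and 8.64 CPM in Nrf2 -/- and 8.26 and 7.60 CPM in wild-type untreated libraries (log2 fold 0.42 ± 0.10, adjusted p = 0.00103). At 24 h it had 13.8, 8.45 and 10.03 CPM in Nrf2 -/- and 11.4 and 10.9 CPM in wild-type IFN-γ libraries, against 8.20, 7.88 and 6.97 CPM in Nrf2 -/- and 6.12 and 5.66 CPM in wild-type untreated libraries (0.71 ± 0.11, adjusted p = 3.48e-07). All treated libraries were above all untreated ones at both hours, though Nrf2 -/- IFN-γ 24 h replicate 2 only narrowly.

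At 48 h the order of Hmox1 was the other way round, at 10.2, 12.4 and 12.8 CPM in Nrf2 -/- and 13.5 and 9.44 CPM in wild-type IFN-γ libraries, against 13.6, 14.6 and 13.2 CPM in Nrf2 -/- and 13.5 and 14.0 CPM in wild-type untreated libraries. The groups overlapped, and the log2 fold of −0.24 ± 0.10 just passed (adjusted p = 0.0428). It did not pass when any single library of wild-type IFN-γ 48 h replicate 2, Nrf2 -/- IFN-γ 48 h replicate 1, wild-type untreated 48 h replicates 1 and 2 and Nrf2 -/- untreated 48 h replicates 1 and 2 was left out (log2 folds of −0.12 to −0.25, adjusted p of 0.0595 to 0.351), nor by kallisto (adjusted p = 0.113). The untreated level itself rose between 24 and 48 h. The response to IFN-γ was lower at 48 h than at 24 h by −0.95 ± 0.15 (adjusted p = 1.42e-06), a contrast chosen after the values were seen, for which 42.9% of all tested genes passed.

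Blvrb was higher with IFN-γ than in untreated cells, with larger log2 folds at the later hours, while its untreated level declined. Its mean with IFN-γ was 2.292, 2.418 and 2.189 CPM at 8, 24 and 48 h. At 48 h it had 2.32, 2.52 and 2.40 CPM in Nrf2 -/- and 1.75 and 1.96 CPM in wild-type IFN-γ libraries, against 0.817, 0.639 and 0.759 CPM in Nrf2 -/- and 1.26 and 0.826 CPM in wild-type untreated libraries. The groups did not overlap, and the log2 fold was 1.26 ± 0.17 (adjusted p = 3.83e-08), beside 0.97 ± 0.16 at 24 h (adjusted p = 1.71e-06) and 0.48 ± 0.15 at 8 h (adjusted p = 0.00939). Leaving out wild-type untreated 8 h replicate 1 ended the 8 h call (0.41, adjusted p = 0.0642). Without Nrf2 -/- untreated 8 h replicate 3, the library at odds with its genotype label, it was 0.38 (adjusted p = 0.0405).

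The log2 fold of Blvra to untreated cells was largest at 48 h, where its untreated mean was lower than at 24 h. Its mean with IFN-γ was 26.34, 30.23 and 27.58 CPM at 8, 24 and 48 h. Its untreated mean was 27.17, 27.3 and 19.49 CPM at the same hours. At 48 h Blvra had 27.96, 26.8 and 28.2 CPM in Nrf2 -/- and 29.9 and 24.98 CPM in wild-type IFN-γ libraries, against 20.2, 17.98 and 20.2 CPM in Nrf2 -/- and 19.95 and 19.1 CPM in wild-type untreated libraries, a log2 fold of 0.50 ± 0.07 (adjusted p = 2.43e-08) with no overlap. At 24 h the fold was 0.15 ± 0.06 (adjusted p = 0.0459), and it did not pass without Nrf2 -/- IFN-γ 24 h replicates 2 or 3, wild-type IFN-γ 24 h replicate 2, Nrf2 -/- untreated 24 h replicates 1 or 2 or replicate 1 of wild-type untreated 24 h (0.14 to 0.16, adjusted p of 0.0555 to 0.0793). Hmox2 differed little at any hour of IFN-γ. Its log2 folds were −0.19 ± 0.06 at 8 h (adjusted p = 0.0134) and −0.16 ± 0.06 at 24 h (adjusted p = 0.0293), and 0.10 at 48 h, where it did not pass (adjusted p = 0.189). Leaving out wild-type IFN-γ 8 h replicate 1 ended the 8 h call (−0.13, adjusted p = 0.159). The 24 h call was lost without Nrf2 -/- IFN-γ 24 h replicate 1, wild-type IFN-γ 24 h replicate 1, Nrf2 -/- untreated 24 h replicates 1 or 3 or wild-type untreated 24 h replicate 1 (−0.08 to −0.13, adjusted p of 0.100 to 0.369), and a call higher at 48 h appeared without wild-type untreated 48 h replicate 1 (0.16, adjusted p = 0.0489).

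Both ferritin chains were lower under IFN-γ from 24 h on. Ftl1 at 48 h had 702, 724 and 666 CPM in Nrf2 -/- and 683 and 746 CPM in wild-type IFN-γ libraries, against 1145, 1084 and 1070 CPM in Nrf2 -/- and 1228 and 1082 CPM in wild-type untreated libraries. Every IFN-γ library was far below every untreated one, with a log2 fold of −0.67 ± 0.05 (adjusted p = 5.64e-14). Fth1 at 48 h had 116, 89.7 and 106 CPM in Nrf2 -/- and 104 and 112 CPM in wild-type IFN-γ libraries, against 128, 145 and 159 CPM in Nrf2 -/- and 160 and 169 CPM in wild-type untreated libraries (−0.54 ± 0.09, adjusted p = 7.77e-06). At 24 h Fth1 was lower by −0.41 ± 0.09 (adjusted p = 0.000306), with 72.0 to 100.2 CPM in IFN-γ and 109 to 127 CPM in untreated libraries. Ftl1 was lower by −0.16 ± 0.05 at that hour (adjusted p = 0.0121). It no longer passed on leaving out replicate 2 of wild-type IFN-γ 24 h (−0.11, adjusted p = 0.127), replicate 1 of wild-type untreated 24 h (−0.08, adjusted p = 0.259) or replicate 3 of Nrf2 -/- untreated 24 h (−0.12, adjusted p = 0.0717). The gap of Ftl1 to untreated cells was wider at 48 h than at 24 h by −0.52 ± 0.08 (adjusted p = 4.35e-07). With IFN-γ its mean was 634.8 CPM at 24 h and 704.3 CPM at 48 h, against 715.2 and 1122 CPM in untreated cells. The means of Fth1 were 86.35 and 105.5 CPM with IFN-γ, against 115.9 and 152.2 CPM in untreated cells. Neither mean was thus lower at 48 h than at 24 h with IFN-γ, and the untreated means were higher at 48 h.

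Tfrc was a little lower under IFN-γ at 8 and 24 h and not at 48 h. Its log2 folds were −0.29 ± 0.06 at 8 h (281 to 328 CPM with IFN-γ, 333 to 383 CPM untreated, adjusted p = 8.23e-05) and −0.27 ± 0.06 at 24 h (263 to 342 CPM with IFN-γ, 352 to 395 CPM untreated, adjusted p = 9.61e-05). At 48 h it was 0.08 (adjusted p = 0.222), and on leaving out replicate 2 of wild-type IFN-γ 48 h it was 0.16 (adjusted p = 0.0240). Slc40a1 passed only at 48 h, lower, with 44 counts in the 5 IFN-γ libraries together and 80 in the 5 untreated libraries (log2 fold −0.92 ± 0.35, adjusted p = 0.0252). It failed on leaving out replicate 2 of wild-type IFN-γ 48 h, of Nrf2 -/- IFN-γ 48 h or of wild-type untreated 48 h, or replicate 3 of Nrf2 -/- untreated 48 h (−0.78 to −0.85, adjusted p of 0.0561 to 0.0840).

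Trf had the largest response to IFN-γ of the 9 genes. At 24 h it stood at 8.47, 12.6 and 14.4 CPM in Nrf2 -/- and 14.2 and 12.0 CPM in wild-type IFN-γ libraries, against 44.6, 54.7 and 54.2 CPM in Nrf2 -/- and 61.3 and 50.4 CPM in wild-type untreated libraries. The groups were far apart, and the log2 fold was −2.11 ± 0.14 (adjusted p = 4.48e-15). At 8 h it was already lower, at 8.87, 5.56 and 7.87 CPM in Nrf2 -/- and 7.94 and 6.79 CPM in wild-type IFN-γ libraries against the untreated values given above (−0.78 ± 0.15, adjusted p = 4.78e-05). At 48 h it had 30.6, 26.4 and 29.8 CPM in Nrf2 -/- and 27.2 and 38.3 CPM in wild-type IFN-γ libraries, against 88.9, 88.1 and 76.0 CPM in Nrf2 -/- and 85.6 and 74.9 CPM in wild-type untreated libraries (−1.42 ± 0.13, adjusted p = 4.37e-11). Under IFN-γ every 48 h library was thus above every 24 h library, a comparison that was not tested. Its response differed between 24 and 8 h by −1.33 ± 0.20 (adjusted p = 2.51e-06, 32.9% of all tested genes called) and between 48 and 24 h by 0.69 ± 0.19 (adjusted p = 0.00340).

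The mature oligodendrocyte markers moved the same way as Trf. With IFN-γ their summed level was 6876 to 9289 CPM at 24 h, against 23560 to 28530 CPM untreated, and 19170 to 24340 CPM at 48 h, against 40300 to 43960 CPM untreated. At 8, 24 and 48 h alike 13 of these 15 genes were lower and 0 higher by edgeR. The cell-division genes ran the other way at 24 h, at 2075 to 2618 CPM with IFN-γ and 733 to 889 CPM untreated. The part of either list in the values of Trf and ferritin was not tested.

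**Figure D2:**
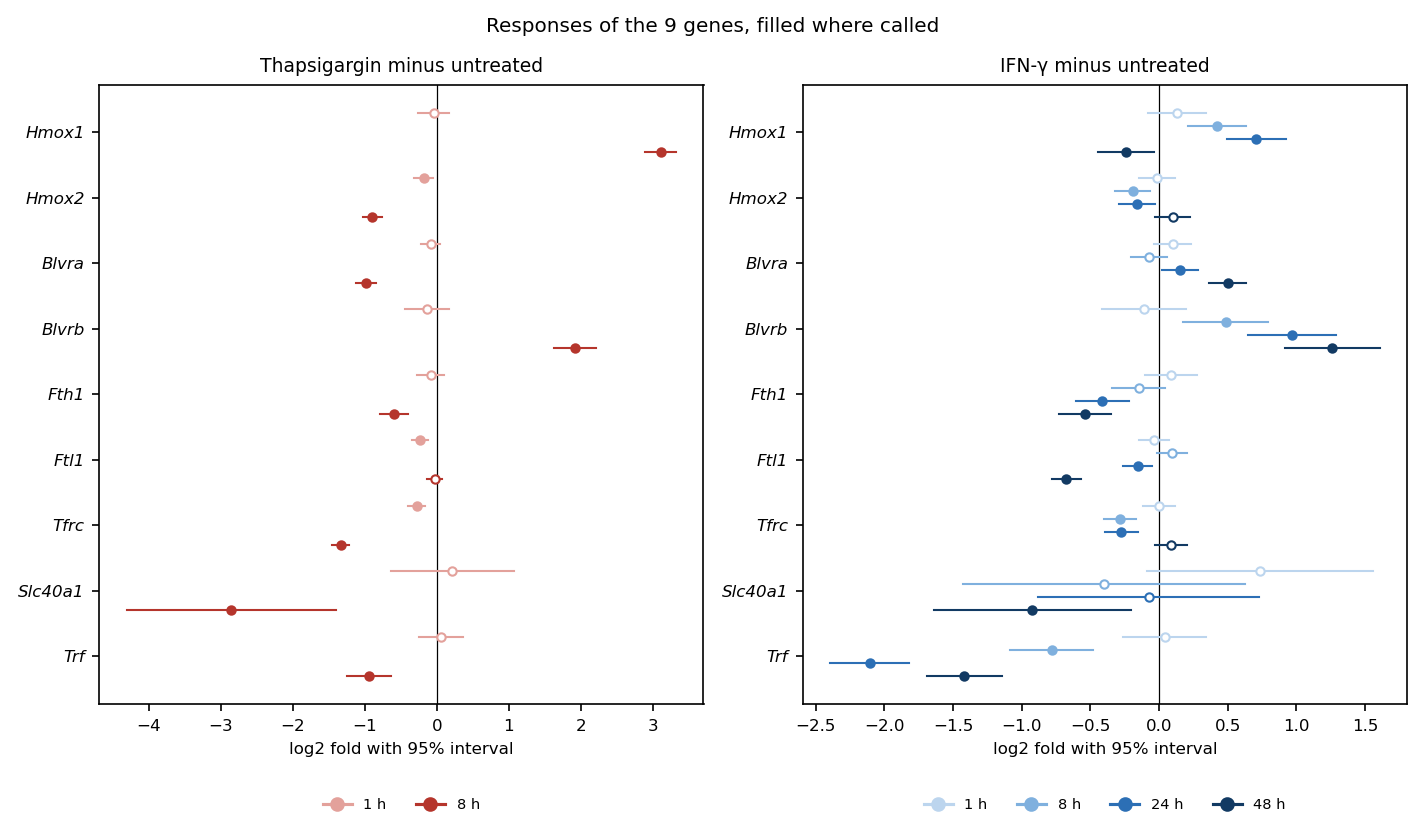
Log2 fold of each of the 9 genes (rows) with its 95% interval, treated minus untreated at the same hour and averaged over the genotypes, for thapsigargin at 1 and 8 h and IFN-γ at 1, 8, 24 and 48 h. Filled points passed at an adjusted p below 0.05. Hmox1 and Blvrb lie to the right at 8 h of thapsigargin (3.11 and 1.92) and Trf lies far to the left at 24 h of IFN-γ (−2.11).

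The 2 treatments were also compared directly, with no untreated library shared. At 8 h Hmox1 was 6.45-fold higher with thapsigargin than with IFN-γ (log2 2.69 ± 0.10, adjusted p = 1.41e-24), and Blvrb was higher by 1.43 ± 0.14 (adjusted p = 7.75e-12). Tfrc (−1.05 ± 0.06), Blvra (−0.91 ± 0.07), Hmox2 (−0.70 ± 0.06) and Fth1 (−0.44 ± 0.10) were lower with thapsigargin, with adjusted p of 4.51e-19, 2.44e-15, 1.52e-12 and 0.000104. For Trf the difference did not pass, with 5.33 to 8.39 CPM in thapsigargin and 5.56 to 8.87 CPM in IFN-γ libraries at a log2 difference of −0.16 (95% interval −0.48 to 0.15, adjusted p = 0.360). From the kallisto table that difference was −0.39 and passed (adjusted p = 0.0142).

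In all, 8 of 9 genes passed in the direct comparison at 8 h, 2 higher and 6 lower, where 67.8% of all tested genes did. Ftl1 is among the lower ones at −0.12 ± 0.05 (adjusted p = 0.0448) and was lost without Nrf2 -/- thapsigargin 8 h replicate 1, wild-type thapsigargin 8 h replicate 2, Nrf2 -/- IFN-γ 8 h replicates 1 or 3 or wild-type IFN-γ 8 h replicates 1 or 2 (−0.05 to −0.12, adjusted p of 0.0591 to 0.424). Slc40a1, with 3 counts in thapsigargin and 20 in IFN-γ libraries, did not pass on leaving out replicate 2 of wild-type IFN-γ 8 h (adjusted p = 0.164), nor by kallisto (−0.59, adjusted p = 0.237). At 1 h 3 genes passed, all lower with thapsigargin, where 24.3% of all tested genes did. They were Tfrc (−0.28 ± 0.06, adjusted p = 0.000342), Ftl1 (−0.19 ± 0.05, adjusted p = 0.00585) and Blvra (−0.18 ± 0.07, adjusted p = 0.0352). Blvra failed on leaving out any of wild-type thapsigargin 1 h replicates 1 or 2, Nrf2 -/- thapsigargin 1 h replicates 1 or 3, wild-type IFN-γ 1 h replicates 1 or 2 or Nrf2 -/- IFN-γ 1 h replicate 3 (adjusted p of 0.0643 to 0.104), and Hmox2 joined without Nrf2 -/- thapsigargin 1 h replicate 2 (−0.20, adjusted p = 0.0206) or replicate 1 of wild-type IFN-γ 1 h (−0.20, adjusted p = 0.0476).

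Between 1 and 8 h of thapsigargin every one of the 9 responses changed, where 55.9% of all tested genes passed, in a contrast chosen after the values were seen. By kallisto the change of Slc40a1 did not pass (adjusted p = 0.0777). Without the library at odds with its label all 9 passed, with 3.17 for Hmox1, 1.94 for Blvrb, −1.07 for Tfrc and 0.18 for Ftl1 (adjusted p = 0.0429). The change was 3.16 ± 0.15 for Hmox1 (adjusted p = 2.66e-21), 2.05 ± 0.21 for Blvrb (adjusted p = 4.27e-11) and −1.06 ± 0.08 for Tfrc (adjusted p = 3.06e-14). Ftl1 changed least, by 0.20 ± 0.08 (adjusted p = 0.0229), and did not pass without wild-type thapsigargin 1 h replicate 1, wild-type thapsigargin 8 h replicate 1, Nrf2 -/- thapsigargin 8 h replicate 2 or wild-type untreated 1 h replicate 2 (0.13 to 0.19, adjusted p of 0.0505 to 0.155). Between 1 and 8 h of IFN-γ 24.1% of all tested genes passed, and of the 9 genes Trf (−0.82 ± 0.21, adjusted p = 0.00300), Tfrc (−0.28 ± 0.08, adjusted p = 0.00787) and Blvrb (0.60 ± 0.21, adjusted p = 0.0367) did. The Blvrb change did not pass when any of 9 single libraries was left out, with folds of 0.43 to 0.60 and adjusted p of 0.0555 to 0.191. These were replicates 1 and 2 of wild-type IFN-γ 8 h, replicates 1 and 3 of Nrf2 -/- IFN-γ 8 h, replicate 1 of wild-type IFN-γ 1 h, replicate 2 of Nrf2 -/- IFN-γ 1 h, replicate 1 of wild-type untreated 8 h, replicate 3 of Nrf2 -/- untreated 8 h and replicate 2 of wild-type untreated 1 h.

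In untreated cells the time course was one of rising ferritin and transferrin. Trf had 9.36, 6.70 and 6.59 CPM in Nrf2 -/- and 7.24 and 11.1 CPM in wild-type libraries at 1 h, and it rose at each step, by a log2 fold of 0.61 ± 0.15 between 1 and 8 h, 2.08 ± 0.14 between 8 and 24 h and 0.62 ± 0.13 between 24 and 48 h (adjusted p = 0.00111, 1.58e-14 and 0.000147). Its 48 h libraries were 9.90-fold above those of 1 h (log2 3.31 ± 0.15, adjusted p = 3.96e-20), and none overlapped. Ftl1 rose later, with 1145, 1084 and 1070 CPM in Nrf2 -/- and 1228 and 1082 CPM in wild-type libraries at 48 h, against 552, 559 and 538 CPM in Nrf2 -/- and 577 and 622 CPM in wild-type libraries at 1 h (0.97 ± 0.05, adjusted p = 3.62e-19). Most of that rise fell between 24 and 48 h (0.65 ± 0.05, adjusted p = 1.78e-13). Fth1 was higher at 48 h than at 1 h by 0.77 ± 0.09 (adjusted p = 5.28e-09), with 128 to 169 CPM at 48 h and 78.9 to 107 CPM at 1 h.

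Tfrc went up and came back. It was higher at 8 h than at 1 h by 0.54 ± 0.06 (adjusted p = 1.26e-09), lower at 48 h than at 24 h by −0.51 ± 0.06 (adjusted p = 1.09e-09), and at 48 h stood at 264, 265 and 267 CPM in Nrf2 -/- and 261 and 237 CPM in wild-type libraries, against 268, 263 and 271 CPM in Nrf2 -/- and 248 and 230 CPM in wild-type libraries at 1 h. Blvra followed the same course, higher by 0.39 ± 0.07 at 8 h than at 1 h (adjusted p = 5.84e-06) and lower by −0.48 ± 0.07 at 48 h than at 24 h (adjusted p = 5.75e-08). Hmox1 was higher at 48 h than at 24 h in every library, by 1.03 ± 0.11 (adjusted p = 8.37e-11), and higher than at 1 h by 0.55 ± 0.10 (adjusted p = 1.02e-05). Blvrb declined, to 0.639 to 1.26 CPM at 48 h against 1.76 to 2.70 CPM at 1 h (−1.22 ± 0.17, adjusted p = 3.37e-08), and Hmox2 was lower at 48 h than at 24 h by −0.26 ± 0.06 (adjusted p = 0.000541). Calls of Hmox2 lower at 48 h than at 1 h appeared without Nrf2 -/- untreated 1 h replicate 3, Nrf2 -/- untreated 48 h replicates 1 or 2 or wild-type untreated 48 h replicate 1 (−0.15 to −0.20, adjusted p of 0.0142 to 0.0429). Slc40a1 was higher at 48 h than at 1 h (1.34 ± 0.39, adjusted p = 0.00245), at levels of 0.403 to 0.570 CPM against 0.0251 to 0.427 CPM.

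By step, 3 of the 9 genes passed between 1 and 8 h (all higher, with Hmox1 lower as well without Nrf2 -/- untreated 1 h replicate 3 at −0.28, adjusted p = 0.0394, and Blvrb lower without wild-type untreated 1 h replicate 1 at −0.46, adjusted p = 0.0294), 5 between 8 and 24 h (3 higher, 2 lower), all 9 between 24 and 48 h (5 higher, 4 lower) and 6 between 1 and 48 h (5 higher, 1 lower). The shares of all tested genes were 36.7%, 47.7%, 53.0% and 68.1%. Between 8 and 24 h Hmox1 (−0.27 ± 0.11, adjusted p = 0.0372), Blvrb (−0.41 ± 0.16, adjusted p = 0.0364) and Fth1 (0.23 ± 0.09, adjusted p = 0.0387) passed narrowly. Each of them was lost when any of 5 or 6 single libraries was left out, with adjusted p of up to 0.119 for Hmox1, 0.169 for Blvrb and 0.201 for Fth1. The libraries that turned more than 1 of these calls were Nrf2 -/- untreated 8 h replicates 2 and 3, wild-type untreated 8 h replicate 2, wild-type untreated 24 h replicate 2 and Nrf2 -/- untreated 24 h replicate 3, and the others were Nrf2 -/- and wild-type untreated 8 h replicate 1 and Nrf2 -/- and wild-type untreated 24 h replicate 1. Without the library at odds with its label, Nrf2 -/- untreated 8 h replicate 3, Blvra (0.43), Tfrc (0.55) and Trf (0.58) still passed between 1 and 8 h. Between 8 and 24 h Trf (2.11), Ftl1 (0.21) and Blvrb (−0.52) passed without it, and Hmox1 (−0.26, adjusted p = 0.0626) and Fth1 (0.20, adjusted p = 0.0909) did not. Between 24 and 48 h the calls of Blvrb (−0.49 ± 0.18, adjusted p = 0.0216) and Slc40a1 (0.96 ± 0.37, adjusted p = 0.0257) were the fragile ones. Blvrb was lost without Nrf2 -/- untreated 24 h replicate 2, wild-type untreated 24 h replicate 1 or wild-type untreated 48 h replicate 2 (adjusted p of 0.0522 to 0.147), and Slc40a1 without replicate 2 of wild-type untreated 24 h or 48 h or replicate 3 of Nrf2 -/- untreated 48 h (adjusted p of 0.0558 to 0.155). Over the same 48 h the summed mature oligodendrocyte markers stood at 40300 to 43960 CPM at the end, against 5097 to 6555 CPM at 1 h, with 15 of 15 genes higher, and their part in these values was not tested.

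Ordered by their mean over 5 libraries, the 10 conditions mostly ran into one another. For Hmox1 the single clear step was between thapsigargin 8 h (71.2 ± 8.56 CPM, SD, n = 5) and the next, untreated 48 h (13.8 ± 0.541 CPM), and the lowest was untreated 24 h (6.97 ± 1.09 CPM). Blvrb had the same single step, between thapsigargin 8 h (6.16 ± 0.678 CPM) and IFN-γ 24 h (2.42 ± 0.337 CPM). For Trf the clear steps were between untreated 48 h (82.7 ± 6.71 CPM), untreated 24 h (53.1 ± 6.12 CPM), IFN-γ 48 h (30.5 ± 4.72 CPM) and untreated 8 h (12.7 ± 1.42 CPM). All other conditions of Trf, down to thapsigargin 8 h (6.48 ± 1.15 CPM), overlapped their neighbours. For Tfrc thapsigargin 8 h (146 ± 6.93 CPM) lay below all other conditions. Thapsigargin 1 h (213 ± 21.6 CPM) came next, clear of its neighbour in the order of means but reaching the lowest library of untreated 1 h, and Slc40a1 overlapped throughout.

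Loss of NRF2 made no difference that passed the test for any of these genes. Averaged over the hours of a treatment, 0 of 27 tests (9 genes in thapsigargin, IFN-γ and untreated cells) passed by edgeR, 4 had an unadjusted p under 0.05, and DESeq2 called 0. Of all tested genes 0.51% passed with thapsigargin, 0.0547% with IFN-γ and 0.0243% untreated. Nrf2 -/- libraries overlapped the wild-type libraries in 67 of the 90 pairs of a gene and a condition, lay above them in 10 and below them in 13. With so few libraries per group, full separation can arise by chance, and the same share over all tested genes is not given here. These overlap counts are thus a description, and no conclusion on genotype is drawn from them.

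The induction of Hmox1 by thapsigargin had a log2 fold of 3.16 ± 0.13 in Nrf2 -/- and 3.06 ± 0.16 in wild-type cells, a difference of 0.10 (95% interval −0.30 to 0.50, adjusted p = 0.903). For Blvrb the folds were 1.87 ± 0.18 in Nrf2 -/- and 1.96 ± 0.22 in wild-type cells, and the difference was −0.10 (−0.68 to 0.48, adjusted p = 0.944). The interval for Hmox1 is narrow beside the fold of 3.11 itself, and that for Blvrb is wider. Under IFN-γ, apart from the scarce Slc40a1, the widest gaps were those of Hmox1 at 24 h, with 0.49 ± 0.13 in Nrf2 -/- and 0.92 ± 0.17 in wild-type cells (difference −0.43, −0.86 to 0.01, adjusted p = 0.667), and of Blvrb at 48 h, with 1.70 ± 0.22 in Nrf2 -/- and 0.82 ± 0.26 in wild-type cells (difference 0.88, 0.18 to 1.57, adjusted p = 0.536). Over the 6 responses, 0 of 54 such differences passed by edgeR, 3 had an unadjusted p under 0.05, DESeq2 called 0, and of all tested genes 0.0% passed in each.

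The ferritin light chain had small differences that did not pass. For Ftl1 the log2 difference, Nrf2 -/- minus wild type, was −0.08 ± 0.04 with IFN-γ (unadjusted p = 0.0459, adjusted p = 0.545) and −0.08 ± 0.04 untreated (unadjusted p = 0.0386, adjusted p = 0.731). Fth1 had a log2 difference of −0.13 untreated (95% interval −0.26 to 0.01, adjusted p = 0.767) and Blvrb one of −0.23 (−0.47 to 0.01, adjusted p = 0.764). Tfrc had 0.13 with thapsigargin (0.01 to 0.25, unadjusted p = 0.0284, adjusted p = 0.455). Slc40a1, near the floor, had 0.85 untreated (0.26 to 1.44, unadjusted p = 0.00604, adjusted p = 0.568), with 0.359, 0.375 and 0.427 CPM in Nrf2 -/- and 0.0251 and 0.160 CPM in wild-type libraries at 1 h. Its Nrf2 -/- libraries lay above the wild-type ones at 8 h as well and overlapped them at 24 and 48 h. No genotype test of a member passed without the library at odds with its label, without the 3 libraries of conflicting labels or with a term for the Xist level.

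**Figure D3:**
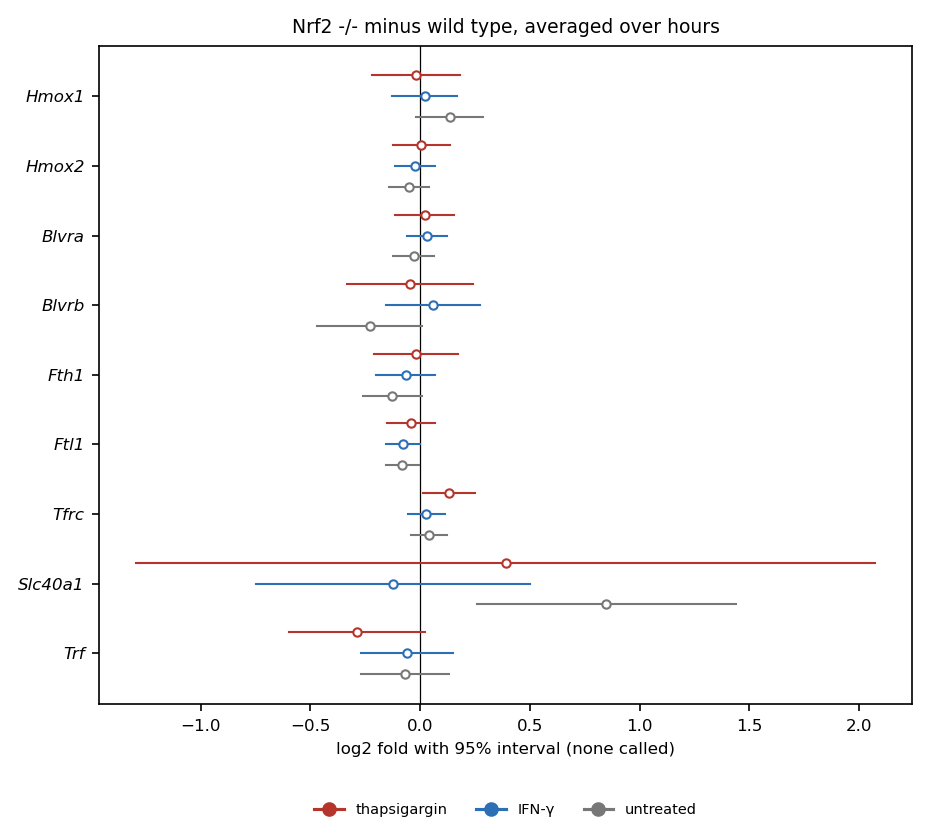
Log2 difference of each gene (rows), Nrf2 -/- minus wild type with its 95% interval, averaged over the hours of thapsigargin, IFN-γ and untreated cells. No point passed at an adjusted p below 0.05, and apart from Slc40a1 the estimates lie between −0.29 (Trf, thapsigargin) and 0.13.

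Promoter windows of 250 bases before to 50 after the gene start (RefSeq, GRCm38.p6) were at hand for 6 of the genes, in 11 windows. Hmox1, Slc40a1 and Trf had no window, so the search does not cover them. The antioxidant response element that NRF2 binds was searched as TGACNNNGC and TGAGNNNGC on both strands, letters that 12.4% and 17.6% of 32851 promoters hold. The first pattern was found in the Blvra window, 49 bases before the start, and the other in the Blvrb window, 69 bases before it. No match was found in the windows of Hmox2, Fth1, Ftl1 or Tfrc. The element TGATGNAA (3.97% of promoters), typical of the stress factor ATF4, was found in none of the 6 genes. These are letters in short windows, and elements farther away were not searched.

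Trf needs a caution about its scale. The gene table holds far fewer reads for Trf than the transcript table, with kallisto estimates 8.28 to 12.2 times the gene counts (median 9.98), while for Hmox1, Blvrb, Fth1 and Tfrc the median of this ratio was 1.00 to 1.01. A read-through gene, Gm20425 (chr9:103190208-103230307, minus strand), overlaps 63.5% of the exonic bases of Trf on the same strand and has 0 counts in the gene table over all libraries but 3069 estimated counts in the transcript table. The pattern over conditions was alike in both tables. By kallisto Trf had 71.7 ± 8.30, 113 ± 15.99, 432 ± 72.3 and 733 ± 39.9 TPM (SD, n = 5) at 1, 8, 24 and 48 h in untreated cells. With IFN-γ it had 71.3 ± 6.91, 60.5 ± 8.04, 94.3 ± 12.4 and 255 ± 36.4 TPM at those hours, and with thapsigargin 69.9 ± 8.98 and 46.5 ± 9.11 TPM at 1 and 8 h.

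**Figure D4:**
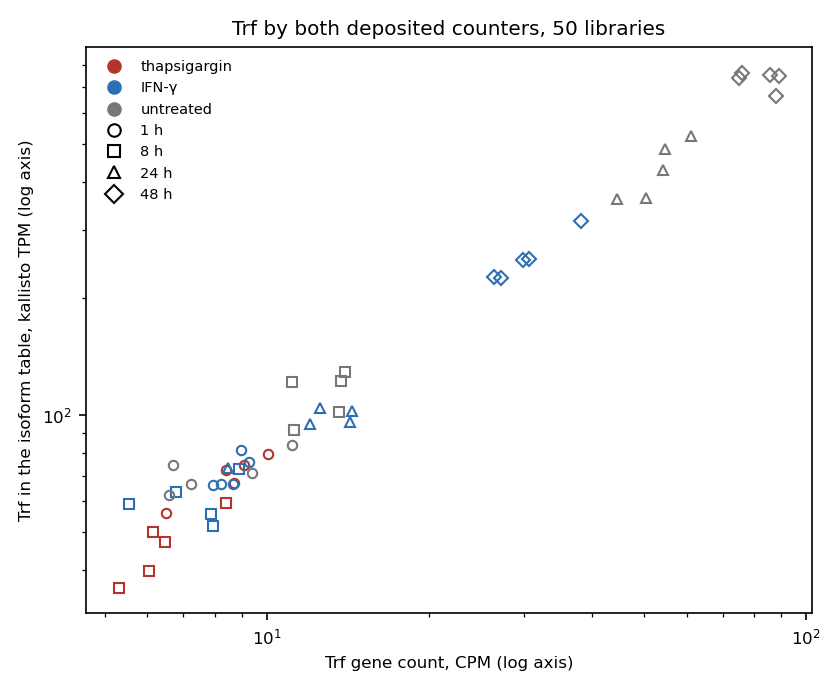
Level of Trf in each of the 50 libraries from the gene counts (x axis, CPM, logarithmic) and from kallisto (y axis, TPM, logarithmic), coloured by treatment. The points run along a single band from 5.33 CPM to 88.9 CPM, with the untreated 48 h libraries at the top.

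Other genes of iron and heme handling were followed by lists. After 8 h of thapsigargin all 8 tested genes of heme synthesis passed, 3 higher and 5 lower, with a median log2 fold of −0.20 against 0.01 over all tested genes. In this comparison 67.1% of all tested genes passed, and the counts of these lists, most of a few genes each, are to be read against that share. Cpox, which makes a late porphyrin, rose by 2.19 ± 0.14, while Alad and Urod, other enzymes of the chain, fell by 0.97 ± 0.07 and 0.82 ± 0.07. Of 11 tested genes of heme transport and control 9 passed (4 higher, 5 lower, median 0.02). The lysosomal heme transporter Slc48a1 fell by 1.02 ± 0.06 and the efflux pump Abcg2 by 0.94 ± 0.07, and Hebp1, a heme-binding protein, and the porphyrin transporter Abcb6 rose by 0.93 ± 0.16 and 0.84 ± 0.11.

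Of 11 tested genes of iron uptake 5 passed, a smaller share than the 67.1% of all tested genes, all of them higher (median 0.69). Hfe, which binds the transferrin receptor, rose by 2.52 ± 0.27, the zinc and iron importer Slc39a14 by 1.49 ± 0.06, the endocytic receptor Lrp2 by 0.83 ± 0.22 and the metalloreductase Steap2 by 0.69 ± 0.09. In the list of export and ferroxidase genes only Cp was testable. Cp encodes ceruloplasmin, the ferroxidase that works with ferroportin. It stood at 10.4 to 14.0 CPM with thapsigargin and 0.713 to 1.25 CPM untreated, 12.5-fold higher (log2 3.65 ± 0.19, adjusted p = 2.11e-20). Among 8 tested regulators and ferritin handlers 4 rose and 2 fell (median 0.21). The iron chaperone family member Pcbp3 rose by 1.38 ± 0.07 and the iron regulatory protein Aco1 fell by 0.61 ± 0.05, with Pcbp2 (0.60 ± 0.21) and Pcbp1 (0.40 ± 0.08) higher. Pcbp2 did not pass with the libraries of 8 h alone (0.57, adjusted p = 0.0850). Nor did it with the 3 libraries of conflicting labels taken as wild type (0.44, adjusted p = 0.0747). Without wild-type thapsigargin 8 h replicate 2 its log2 fold was 0.23. Of 19 mitochondrial iron and iron-sulfur genes 8 rose and 6 fell (median 0.08), with the chaperone Hspa9 (2.36 ± 0.05) and the iron carrier Slc25a28 (1.56 ± 0.07) higher and Cisd3 (−1.15 ± 0.12) and Isca2 (−0.78 ± 0.07) lower.

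With IFN-γ at 24 h heme synthesis had 4 of 8 tested genes lower and 0 higher (median −0.15 against 0.00 over all tested genes), beside 55.9% of all tested genes that passed, with the other lists on both sides of that share. They were Cpox (−1.67 ± 0.14), Alad (−1.09 ± 0.06), Alas1, the rate-limiting enzyme (−0.32 ± 0.05), and Fech, which inserts the iron (−0.18 ± 0.06). Cp was higher by 2.21 ± 0.21, with 2.67 to 3.11 CPM in IFN-γ and 0.328 to 0.734 CPM in untreated libraries. Of iron uptake genes 4 were higher and 2 lower of 11 (median 0.65), among them Hfe (1.93 ± 0.28), Slc39a14 (0.66 ± 0.05) and Lrp2 (0.65 ± 0.24), and Steap4 with 11 counts in the IFN-γ libraries together and 1 in the untreated ones. Regulators had 1 higher and 4 lower of 8 (median −0.31), with Aco1 (−0.65 ± 0.05), Herc2 (−0.61 ± 0.10) and Fbxl5, the ubiquitin ligase that removes the other iron regulatory protein (−0.60 ± 0.04), lower and Pcbp3 (0.48 ± 0.07) higher. Heme transport had 3 higher and 5 lower of 11 (median −0.10), with Abcg2 (1.07 ± 0.07) higher and Flvcr1, a heme exporter (−0.51 ± 0.05), Hebp1 (−0.49 ± 0.18) and the repressor Bach1 (−0.42 ± 0.04) lower. Mitochondrial iron genes had 5 higher and 8 lower of 19 (median 0.00), with Slc25a28 (1.45 ± 0.07) and Hscb (0.53 ± 0.13) higher and Cisd3 (−0.62 ± 0.11) and Slc25a37 (−0.58 ± 0.08) lower. Fech (−0.15, adjusted p = 0.0625) and Hebp1 (−0.46, adjusted p = 0.0771) did not pass with the libraries of 24 h alone. Lrp2 did not pass by kallisto (0.26, adjusted p = 0.289), nor Steap4 without Nrf2 -/- IFN-γ 24 h replicate 2 (2.51, adjusted p = 0.156). Without wild-type untreated 24 h replicate 1 the log2 folds were −0.10 for Fech, −0.13 for Hebp1 and 0.40 for Lrp2.

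In untreated cells all 8 tested genes of heme synthesis were higher at 48 h than at 1 h, with a median log2 fold of 0.45 against −0.01 over all tested genes. Of all tested genes 68.1% passed, and the share of heme synthesis genes is above that while the other lists lie on both sides of it. Cpox rose by 2.92 ± 0.15, Fech by 1.29 ± 0.06, Alad by 0.82 ± 0.06 and Uros by 0.61 ± 0.07. Heme transport had 3 higher and 5 lower of 11 (median 0.03), led by Lrp1 (−1.85 ± 0.12), Abcb6 (−1.81 ± 0.12), Abcg2 (−1.26 ± 0.07) and Bach1 (0.85 ± 0.04). Iron uptake had 4 higher and 2 lower of 11 (median −0.04), led by Hfe (2.18 ± 0.25), Cybrd1 (1.29 ± 0.35), Lrp2 (−1.19 ± 0.25) and Steap3 (0.78 ± 0.31). Cp did not pass (−0.11). Regulators had 4 higher and 2 lower of 8 (median 0.25), led by Fbxl5 (0.84 ± 0.04), Pcbp3 (−0.62 ± 0.07), Ireb2 (0.49 ± 0.15) and Herc2 (0.26 ± 0.10). Mitochondrial iron genes had 3 higher and 9 lower of 19 (median −0.12), led by Cisd3 (0.93 ± 0.11), Hscb (0.75 ± 0.12), Slc25a28 (−0.62 ± 0.08) and Lyrm4 (−0.55 ± 0.10). Scaled by total counts alone, Steap3 (0.57, adjusted p = 0.106), Ireb2 (0.29, adjusted p = 0.09005) and Herc2 (0.06, adjusted p = 0.625) did not pass. Without Nrf2 -/- untreated 48 h replicate 2, Steap3 (0.62, adjusted p = 0.0901) and Herc2 (0.20, adjusted p = 0.0702) did not pass either. The log2 fold of Ireb2 was 0.26 without wild-type untreated 48 h replicate 2.

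The tested genes whose pattern was most like that of a member were found by Pearson's r over the 20 group means of log2(CPM + 0.5). For Hmox1 they were Hrk, Mdfic and Slc38a7 (r of 0.976 to 0.978), for Trf they were Ly6g6d, Ank and Slc24a2 (0.9895 to 0.9951) and for Slc40a1 they were Agmo, 9230114K14Rik and Ak1 (0.866 to 0.876). By Spearman's rho the 3 nearest genes of Hmox1, Trf and Slc40a1 were all others. The group means share libraries and scaling, and these values are descriptions.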

How the data were processed

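Total RNA of 50 libraries was sequenced on an Illumina HiSeq. Per the submitters' processing notes the authors used STAR, featureCounts, kallisto and edgeR. Tool versions, the build and strandedness were not given in the sources used here. The deposited gene table holds raw read counts, and the deposited transcript table holds kallisto's estimated counts, which were summed per gene and rounded to whole numbers for an alternative fit. Of 39056 gene entries 38872 matched GENCODE M21 (GRCm38), from which coordinates were taken.

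The gene counts were scaled with TMM and filtered with edgeR's filterByExpr (minimum count 10, minimum total 15), which left 16460 genes. One quasi-likelihood model with 20 group means was fitted over all libraries (edgeR 4.0.16, R 4.3.3). Contrasts average the genotypes unless stated, p-values were adjusted by the Benjamini-Hochberg method over all tested genes, and calls were made at 0.05. Whether replicates are separate cultures is not labelled, so p-values measure only library-to-library spread, possibly technical in part. In Nrf2 -/- libraries Xist was low in replicate 2 of each treatment at 1 h, replicate 3 at 8 and 24 h and replicate 1 at 48 h. At 1 h it was 5.10 to 8.15 CPM in replicate 2 and 414 to 650 CPM in replicates 1 and 3. Within a Nrf2 -/- group the replicates are thus not all repeats of the same culture. The fit was tested on simulated data. DESeq2 1.42.0, other filters and scalings, single hours or treatments, conflicting labels, a Xist term, a replicate block and each library left out in turn were alternatives. Fits with a library left out kept the tested genes and the dispersion trend of the full fit, and a wild-type group left with a single library was assumed to vary like the others. TPM was computed from the kallisto estimates. Intervals on summed counts cover counting error only. The members and lists were chosen with earlier results of these data known. In lists, up to 4 called genes with the largest log2 folds were named. Some items of the lists, searches and patterns are not reported here.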

Additional observations from a re-analysis of the deposited data

How the results depend on the processing

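Of the single-gene results for the 9 genes, 0 that passed changed sign under the alternatives planned, though folds that did not pass could cross 0. Apart from fits with a library left out, 1709 of 1758 stayed on their side of the threshold, 39 were lost and 10 gained. With a library left out 2681 of 2790 did, with 88 lost and 21 gained. Of the named genes of other lists 1186 of 1219 did, with 33 lost. Scaling by total counts alone, chosen after seeing the data, kept 200 of 225 and reversed 1, Tfrc at 48 h against 1 h (−0.17, adjusted p = 0.0263), as it shifts the median of all genes by −0.20 there.

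Counts of called genes moved by more than 1.5 times in 4 comparisons. For IFN-γ at 24 h the count was 8, and 5 with total-count scaling and 5 to 8 with a library left out (5 without wild-type untreated 24 h replicate 1). For thapsigargin against IFN-γ at 1 h it was 3, and 1 with kallisto and 1 with total-count scaling. For untreated 24 h against 8 h it was 5, and 2 with no filter, 3 with kallisto, 2 without the 3 libraries of conflicting labels, 3 with the libraries of that treatment alone and 2 to 5 with a library left out. For the IFN-γ response at 24 h against 8 h it was 2, and 1 with kallisto, 5 with total-count scaling and 1 to 4 with a library left out. Without the library labelled Nrf2 -/- untreated 8 h replicate 3 these counts were 3 for untreated 24 h against 8 h and 4 for that response. The cause of these changes was not tested. Depth limits Slc40a1, which had at most 20 counts in a library. The labels give no replicate numbers that groups share, so the design pairs no libraries. Deviations from the group means of libraries numbered alike within a genotype and hour correlated at r of −0.06 to 0.21, over 0.1 in 15 of 40 pairs. The lowest r was 0.031 in the 24 Nrf2 -/- pairs and −0.056 in the 16 wild-type pairs. In all, 38 of 50 libraries correlated best with their own number, a hint from the data. Wild-type groups hold 2 libraries, whose deviations mirror each other, so those libraries add little to that count. Among Nrf2 -/- libraries the Xist level also went with these numbers. A replicate block on these numbers, chosen after seeing the data, left 160 of 162 treatment results of the 9 genes on their side of the threshold. Hmox2 at 1 h of thapsigargin was lost (−0.18, adjusted p = 0.0526) and the Blvra response to IFN-γ at 24 h against 8 h was gained (0.23, adjusted p = 0.0314).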
